A study of Mus musculus with 24 samples.

Results

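The miR-34 and miR-449 family was examined in lung RNA of SP-C/c-raf transgenic and wild type mice. Its members were chosen by name: mmu-miR-34a, mmu-miR-34b-5p, mmu-miR-34c and mmu-miR-449a (without the species prefix from here on), 4 of the 611 mouse miRNAs on the array. The transgene places an activated c-Raf-1 (the N-terminally deleted mutant BxB) under the surfactant protein C promoter, which is active in alveolar epithelium, so that the lesions are epithelial. The wild type animals carry no transgene. The 24 arrays, 1 animal each, formed 4 groups of 6: transgenic males (M c-Raf), transgenic females (F c-Raf), wild type males (M WT) and wild type females (F WT), aged 4 to 6 months. According to the labels the RNA came from cells cut out of stained frozen sections with a laser. The tissue label reads lung adenocarcinoma for every sample, wild type included, whereas the study's text speaks of precursor lesions in transgenic animals and its methods of normal lung tissue in wild type animals. A level of RNA per array cannot tell fewer cells of a type from less RNA per cell.

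A miRNA guides the silencing machinery to messenger RNAs that pair with its seed, bases 2 to 8 counted from the 5′ end. The mir-34a gene is switched on directly by the tumour suppressor p53, and miR-34a holds back cell division by repressing cyclins, cyclin-dependent kinases and E2F factors. miR-34b and miR-34c are cut from 1 shared primary transcript, and the mir-449 genes lie in an intron of Cdc20b. These last genes are known for their high expression in multiciliated cells of the airways, where miR-34b, miR-34c and miR-449 lower the centriolar protein Cp110 and so permit cilia to form. The gene table on assembly GRCm38 places Mir34a on chromosome 4 with no overlapping gene, Mir34b and Mir34c on chromosome 9 where both overlap Btg4 and Hoatz, and Mir449a, Mir449b and Mir449c on chromosome 13 within Cdc20b.

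The RefSeq sequence table held 3 of the 4 members. They are shown because the seed, in capitals, defines the family.
miR-34a: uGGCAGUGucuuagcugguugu
miR-34b-5p: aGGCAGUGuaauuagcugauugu
miR-449a: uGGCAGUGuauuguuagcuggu
On GRCm38.p6 they lie at chr4:150068473-150068494 on the plus strand, chr9:51103610-51103632 on the minus strand and chr13:113037549-113037570 on the plus strand. All have the seed GGCAGUG, which the table gives to 4 of its 1738 mature miRNAs, these 3 and miR-449c. Outside the seed the sequences differed. Aligned from the first base without gaps, miR-34a and miR-449a had the same base at 15 of 22 positions, miR-34a and miR-34b-5p at 11 of 22, and miR-34b-5p and miR-449a at 10 of 22. miR-34c was not matched.

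The scanner files give a background-subtracted intensity for each of the 20 spots of a miRNA. The brightness of an array, its 75th percentile of intensity over the spots of the 27 miRNAs detected on all 24 arrays, ran from 34.9 to 1212 units. The number of arrays and this range limit the precision of every value here. Levels below are log2 of intensity over brightness, so that 0 is the brightness of the array and -6.64 is the floor. A miRNA was tested when the extraction software had detected it on at least 6 arrays, which 120 miRNAs and all 4 members passed; "called" means an adjusted p under 0.05 in the limma fit over these 120. Each slide carried 1 array of each group, and the replicate number of the labels was the slide number on all 24 arrays. The position on the slide was the same for all arrays of a group, so position and group cannot be told apart.

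miR-34a was detected on 24 of 24 arrays, miR-34c on 22 and miR-34b-5p on 19. miR-449a was detected on 8 arrays, 4 of M c-Raf, 3 of F c-Raf and 1 of F WT with 0 of M WT, thus on 7 of 12 transgenic and 1 of 12 wild type arrays. Detection moved with brightness: the arrays with miR-449a ran from 175 to 1212 units and those without from 34.9 to 422 units. Among arrays of at least 175 units, it was detected on 7 of 10 transgenic and 1 of 8 wild type arrays. This limit is the brightness of the dimmest array with miR-449a detected, so it was set by the detections themselves. F c-Raf replicate 4, counted as detected, had 0 of 20 spots well above background. The number of miRNAs detected per array ran from 38 to 179 in M c-Raf and 54 to 139 in F c-Raf. In M WT it ran from 51 to 93 and in F WT from 62 to 150. Arrays with miR-449a detected had 100 to 179 miRNAs detected, and those without it 38 to 117. The count by genotype was not made for each of the other miRNAs. The part of brightness in these counts was not tested. The limit of detection in M WT was higher than the level of miR-449a in every other group, so no bound on a fold change could be given. The arrays that missed miR-34c were M c-Raf replicate 6 and M WT replicate 4, the dimmest of the 24 at 34.9 and 52.8 units.

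**Figure D1:**
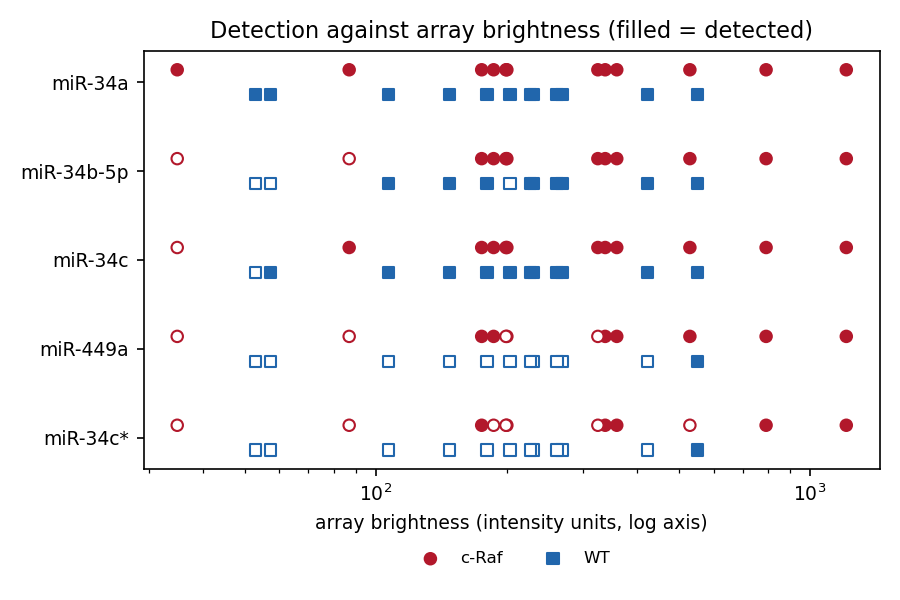
Detection of each member and of miR-34c* against the brightness of the array in intensity units, on a log axis. Each row holds 12 c-Raf arrays (circles) and 12 WT arrays (squares), filled where the miRNA was detected; miR-34a is filled on all 24, and miR-449a on 7 c-Raf arrays and 1 WT array.

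Other products of the same genes were rarer. miR-34c*, from the opposite arm of the miR-34c hairpin, was detected on 6 arrays, 3 of M c-Raf, 2 of F c-Raf and 1 of F WT. miR-34b-3p was detected on 1 array, M c-Raf replicate 4, the brightest of the series. miR-449b and miR-449c were detected on 0 of 24 arrays. The multiciliated-cell list was made of miR-34b-5p, miR-34c, miR-449a, miR-449b and miR-449c, of which only the first 3 were detected. Its summed level counts each miRNA at the floor with the floor value, so its low ends are partly floor. This summed level ran from -3.21 to -2.47 in M c-Raf, -3.73 to -2.02 in M WT, -2.89 to -1.96 in F c-Raf and -3.33 to -1.86 in F WT.

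Each member was read by 2 probes of 10 spots, and these gave different levels. For miR-34a the brighter probe lay at a mean log2 level of -0.53 over the 24 arrays and the other at -3.80, with 129 of 240 spots well above background, and every spot of the first exceeded every spot of the second on all 24 arrays. The dimmer probe was well above background on 20 of 240 spots for miR-34c, 21 of 240 for miR-34b-5p and 0 of 240 for miR-449a. The spots well above background thus came mainly, and for miR-449a wholly, from 1 probe, whereas the level used the spots of both. The median over 20 spots therefore falls between the probes, and each comparison was also made with the brighter probe alone. Because probes differ in efficiency, the order of levels between miRNAs was not read.

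miR-34a, the member most closely tied to p53, had higher means in transgenic than in wild type lung in both sexes, but in males the difference rested on 1 wild type array and turned to -0.14 after normexp background correction. Over both sexes the difference was called with slide or scan as a block, under some of the settings tried, and was not called without a block. In M c-Raf its level ran from -1.79 to -1.26 with a median of -1.49, and in M WT from -2.77 to -1.20 with a median of -1.59. In F c-Raf it ran from -1.85 to -0.99 with a median of -1.22, and in F WT from -2.20 to -1.27 with a median of -1.59. The groups overlapped in both sexes, and the lowest array of every group was on slide 4.

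The means (± SD, n = 6) were -1.52 ± 0.19 in M c-Raf against -1.74 ± 0.53 in M WT, and in females -1.28 ± 0.30 in F c-Raf against -1.65 ± 0.32 in F WT. miR-34a differed by 0.22 (SE 0.21) on the log2 scale in males and by 0.37 (SE 0.21) in females, with limma's adjusted p of 0.466 and 0.421. Without M WT replicate 4, an array of 52.8 brightness units, the male difference was 0.0136, and it was 0.0427 without the 3 arrays under 60 units. Averaged over both sexes the difference was 0.30 (SE 0.15), a ratio of 1.23 with a 95% interval of 0.99 to 1.52, and it was not called (limma's adjusted p = 0.176). With slide as a block it was called: the SE fell to 0.091, the interval narrowed to 1.07 to 1.40 and limma's adjusted p was 0.026; with scan as a block the adjusted p was 0.0287. The brighter probe alone gave 0.31 with the slide block and an adjusted p of 0.0446. Joined to 13 other scalings, floors, filters and summaries, the slide block kept the call in 4 and lost it in 9, with differences of 0.16 to 0.77 and adjusted p up to 0.998.

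On all 6 slides the mean of the 2 transgenic arrays exceeded the mean of the 2 wild type arrays, while within a sex the transgenic array was higher on 4 of 6 slides in males and 5 of 6 in females. This within-slide difference ran from 0.078 on slide 5 to 0.67 on slide 4, where M WT replicate 4 had the lowest miR-34a of the series. The arrays were scanned in 4 batches, and within them the difference was 0.67, 0.17, 0.21 and 0.28. Leaving out 1 array at a time kept the adjusted p between 0.0149 and 0.0511, with 21 of 24 fits called, the exceptions being those without M c-Raf replicate 4, F WT replicate 2 or F WT replicate 6. Leaving out 1 slide at a time gave 0.22 to 0.34 with 2 of 6 fits called. Without a block and without the 3 arrays under 60 units (M c-Raf replicate 6, M WT replicate 4 and F WT replicate 6) the difference was 0.19 and not called (adjusted p = 0.28).

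**Figure D2:**
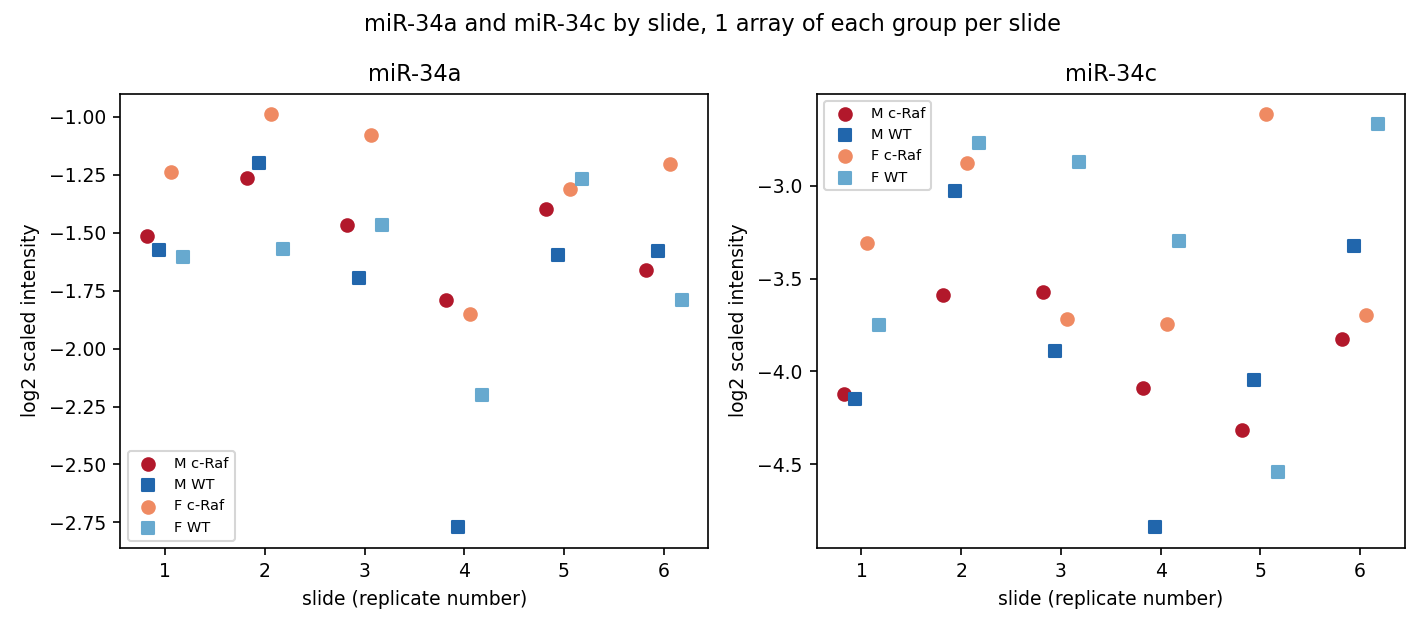
log2 scaled intensity of miR-34a (left) and miR-34c (right) by slide; each slide held 1 array of each group, circles c-Raf and squares WT. For miR-34a all 4 arrays of slide 4 are low, with M WT lowest at -2.77, and for miR-34c the low and high arrays lie on different slides in different groups.

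The level of miR-34a moved strongly with the slide. Mean levels over the 4 arrays of a slide ran from -2.15 on slide 4 to -1.26 on slide 2, a range of 0.90. Slide 4 was lowest in 4 of 4 groups and slide 2 highest in 3 of 4. Slides took up 76.8% of the sum of squares of miR-34a within groups, against a median of 37.5% over the 120 miRNAs, and only 1 of them had a higher share. The shares of miR-449a, miR-34b-5p and miR-34c were 68.2%, 56.1% and 39.9%. Slide 4 was also a scan batch of its own, so slide and scan cannot be told apart there.

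Across all 120 miRNAs, 22 (18.3%) were called between genotypes over both sexes without a block, 15 higher and 7 lower in c-Raf, and 0 of the 4 members. With the slide block 28 miRNAs (23.3%) were called, and 1 of the 4 members. The median difference of the members was 0.13, against 0.089 for all 120. In males 3 miRNAs (2.5%) were called and in females 6 (5%), in each case with 0 members. Of the 5 epithelial miRNAs listed as markers (the miR-200 family), 4 were tested and 3 were called higher in c-Raf over both sexes: miR-200a by 0.73 (adjusted p = 0.0217), miR-200b by 0.75 (0.0482) and miR-429 by 0.73 (0.018). The summed level of that list ran from -0.58 to 0.98 in M c-Raf, -0.71 to 0.47 in M WT, 0.17 to 0.90 in F c-Raf and -0.27 to 0.69 in F WT. Its remaining miRNAs were miR-200c, which differed by 0.23 (adjusted p = 0.461), and miR-141, detected on 1 array. The endothelial miR-126-3p was higher by 0.75 (adjusted p = 0.0217) whereas of 2 red-cell markers tested miR-486 fell by 1.10 (adjusted p = 0.0021) and miR-451 differed by 0.38 (adjusted p = 0.389). Among leukocyte markers 0 of 3 tested were called by limma, or 1 with the block (miR-223, 0.66, against -0.38 for miR-150 and -0.02 for miR-155), and 1 had an unadjusted p under 0.05; among muscle markers 0 of 2 were called and 1 had such a p, with a median of -0.73. The endothelial miR-126-5p, the leukocyte miR-142-3p and miR-142-5p, the red-cell miR-144 and the muscle miR-1 were detected on 0 arrays. The part of cell composition in the level of miR-34a was not tested.

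**Figure D3:**
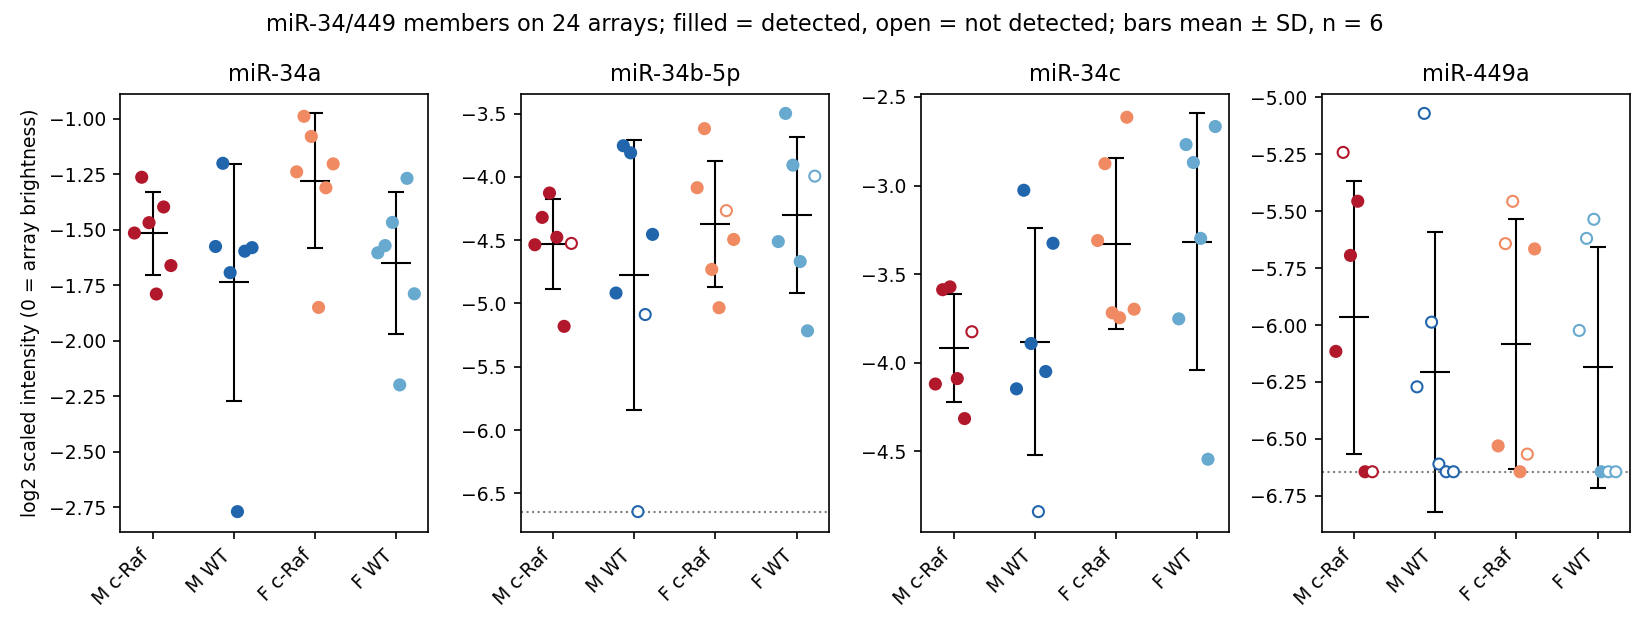
log2 scaled intensity of the 4 members in each group (6 arrays per group, points in order of replicate number), filled where detected and open where not; bars give the mean ± SD and the dotted line marks the floor. Every pair of groups overlaps for every member, and F c-Raf has the highest mean miR-34a, -1.28.

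The p53-linked list (miR-192, miR-194, miR-215, miR-107, miR-143, miR-145, miR-15a, miR-16 and miR-200c, each reported to be induced or matured with the help of p53) had 4 of 9 miRNAs past the filter. Over both sexes 1 of these 4 was called without and with the block, where 18.3% and 23.3% of all miRNAs were, namely miR-16, which limits cell cycle entry, higher in c-Raf by 0.93 (SE 0.27, adjusted p = 0.0217). miR-15a differed by 0.34 (adjusted p = 0.332), miR-200c by 0.23 and miR-107 by 0.20 (adjusted p = 0.368). The median of the 4 was 0.28. miR-192, miR-194 and miR-215 were detected on 0 arrays, and miR-143 and miR-145 on 3 each.

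miR-34b-5p differed between genotypes by less than the spread of the arrays, and its sign changed with the scaling, the floor and the array left out. It ran from -5.18 to -4.13 (median -4.50) in M c-Raf and -6.64 to -3.75 (median -4.69) in M WT. In females it ran from -5.03 to -3.62 (median -4.38) in F c-Raf and -5.22 to -3.50 (median -4.25) in F WT, so that the groups overlapped in both sexes. The widest group was M WT, with an SD of 1.07 that holds 1 array at the floor, replicate 4. The difference was 0.25 (SE 0.39) in males and -0.07 (SE 0.39) in females, with adjusted p of 0.677 and 0.964. Over both sexes it was 0.09, and the 95% interval of the ratio, 0.72 to 1.58, spans lower and higher levels in c-Raf.

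miR-34c too differed between genotypes by less than the spread of the arrays. With the scaling used here, the differences were -0.04 (SE 0.32) in males and -0.01 (SE 0.32) in females, with adjusted p of 0.971 and 0.999, and the ratio over both sexes was 0.98 with an interval of 0.71 to 1.36, whereas without scaling the log2 difference in males was 1.12 (the median over 120 miRNAs then being 1.19). Slides went both ways, with c-Raf higher on 3 of 6 in males and on 2 of 6 in females. In females the within-slide difference ran from -1.03 on slide 6 to 1.93 on slide 5, where F c-Raf replicate 5 had the highest and F WT replicate 5 the lowest miR-34c of the female arrays.

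miR-449a lay near the floor in all groups. Its medians were -5.91 in M c-Raf, -6.44 in M WT, -6.10 in F c-Raf against -6.33 in F WT, and 8 of the 24 arrays were at the floor, some of them arrays on which miR-449a was detected. The difference was 0.24 (SE 0.32) in males and 0.10 (SE 0.32) in females, with adjusted p of 0.649 and 0.939. The highest array of M WT, replicate 2 at -5.07, was above every other array of the series although miR-449a was not detected on it.

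**Figure D4:**
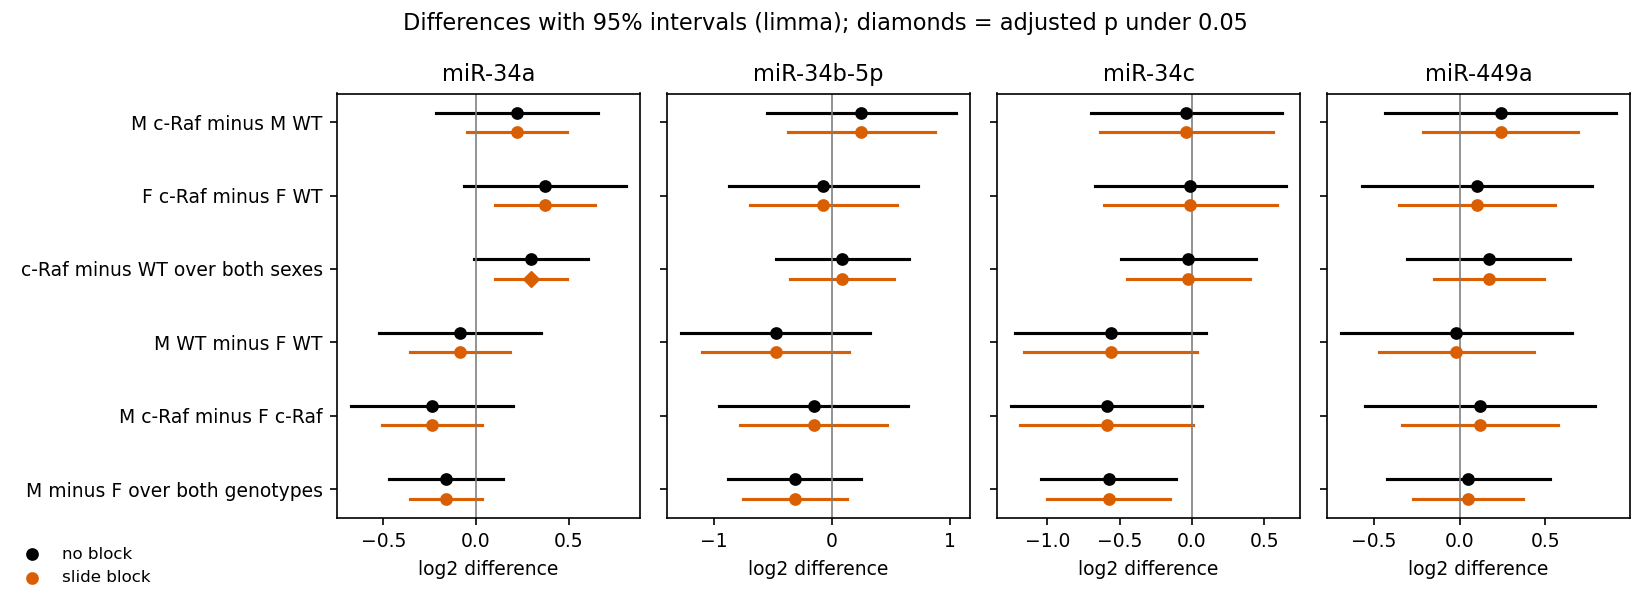
log2 differences of each member in 6 comparisons, with 95% intervals from limma, without a block (black) and with the slide as a block (orange); diamonds mark an adjusted p under 0.05. The only diamond is miR-34a between genotypes over both sexes with the block, at 0.30.

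Between the sexes, the mean of miR-34c was lower in males in both genotypes, but this turned to 0.12 in c-Raf without scaling and to 0.31 in WT after normexp. The level of miR-34c ran from -4.31 to -3.57 (median -3.96) in M c-Raf and from -3.75 to -2.61 (median -3.50) in F c-Raf, with means of -3.92 ± 0.30 and -3.33 ± 0.49 (SD, n = 6). In M WT it ran from -4.84 to -3.03 (median -3.97) and in F WT from -4.54 to -2.67 (median -3.08), with means of -3.88 ± 0.64 and -3.32 ± 0.72. The ranges overlapped in both genotypes.

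The male-minus-female difference of miR-34c was -0.59 (SE 0.32) in c-Raf and -0.56 (SE 0.32) in WT, with limma's adjusted p of 0.617 and 0.562. An exact two-sided permutation test over all divisions of the 12 arrays gave p = 0.0368 in c-Raf and 0.18 in WT, unadjusted, among 16 such tests on the members of which this was the smallest. The sex difference averaged over both genotypes, a comparison added after the values were seen, was -0.58 (SE 0.23), a ratio of 0.67 with an interval of 0.48 to 0.93. It was not called over the 120 miRNAs (limma's adjusted p = 0.306), nor with the slide block (adjusted p = 0.167), where 3 miRNAs (2.5%) were. The mean of the 2 male arrays was below that of the 2 female arrays on 6 of 6 slides, by 0.39 to 0.94, and within the 4 scan batches the difference was -0.94, -0.50, -0.60 and -0.46. With the brighter probe alone it was -0.42 and the direction held on 5 of 6 slides.

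The other members showed smaller differences between the sexes. Averaged over both genotypes, those of miR-34a, miR-34b-5p and miR-449a were -0.16, -0.32 and 0.05, with adjusted p from 0.611 to 0.94. In that comparison 2 of 120 miRNAs (1.67%) were called, between M WT and F WT 0 (0%), where 11 had an unadjusted limma p under 0.05, and between the sexes of c-Raf mice 3 (2.5%). The genotype difference in males minus that in females ran from -0.15 to 0.32 over the members; 0 of 120 miRNAs (0%) were called by limma, and 5 had an unadjusted p under 0.05. Neighbours in the order of the group means were not called for any member in the fit without a block. The order was F c-Raf, M c-Raf, F WT, M WT for miR-34a, F WT, F c-Raf, M c-Raf, M WT for miR-34b-5p, F WT, F c-Raf, M WT, M c-Raf for miR-34c, and M c-Raf, F c-Raf, F WT, M WT for miR-449a. The ends of the order were not called in that fit either. They lay 0.46 apart for miR-34a (F c-Raf over M WT, limma's adjusted p = 0.119), 0.48 for miR-34b-5p, 0.60 for miR-34c and 0.24 for miR-449a. With the slide block limma's adjusted p for miR-34a was 0.0148. F c-Raf and M WT were picked as the highest and lowest observed means and differ in both sex and genotype. That p is therefore a description and not a test of a comparison chosen beforehand.

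miR-34b-5p and miR-34c moved together over the arrays. The part of their shared primary transcript in this was not tested. Nor was that of likeness between their sequences, as miR-34c had no matched sequence. Pearson's r was 0.80 and Spearman's rho 0.77 over 24 arrays, and r was 0.81 when the group means were taken out. Each was the closest of the other 119 tested miRNAs to its partner, and 1.53% of all pairs had a higher r, the median over pairs being 0.02. Without the 2 arrays farthest from the median of miR-34b-5p r was 0.73, and within the 2 scan batches of 8 arrays it was 0.93 and 0.67. With the brighter probes alone r was 0.70 over all arrays, and 0.82 and 0.94 within these batches, but miR-34c then ranked only 18th among the partners of miR-34b-5p. The difference in level between the pair averaged -0.61 ± 0.19 in M c-Raf, -0.90 ± 0.62 in M WT, -1.04 ± 0.36 in F c-Raf, and -0.98 ± 0.31 (SD, n = 6) for F WT. Arrays share brightness and slide, so these correlations are descriptions and carry no p.

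**Figure D5:**
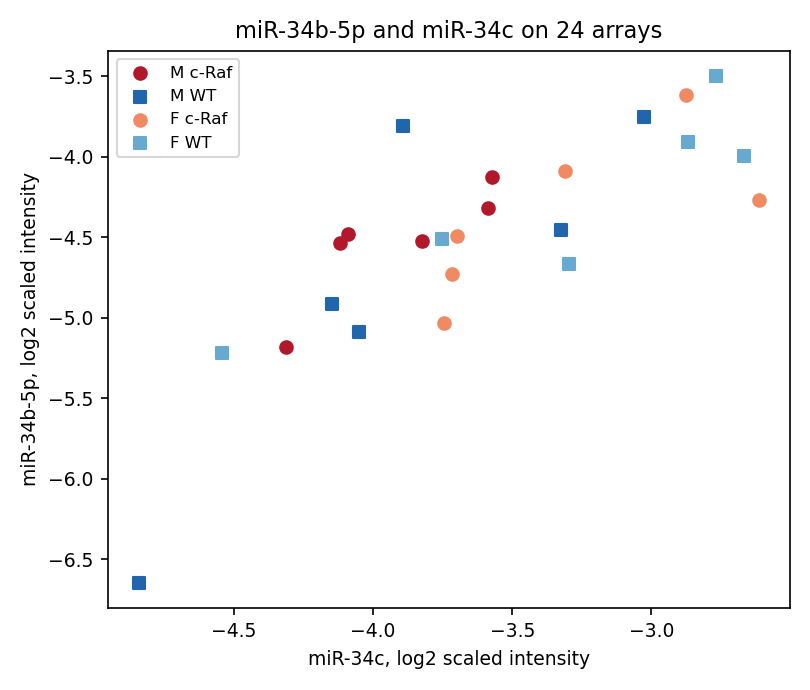
miR-34b-5p against miR-34c, both as log2 scaled intensity, on 24 arrays; circles are c-Raf and squares WT. The points follow 1 diagonal band in all 4 groups (r = 0.80), with M WT replicate 4 alone at the lower left.

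The rest of the family did not follow that pair as closely. miR-34a had r of 0.57 with miR-34b-5p and 0.35 with miR-34c, and the first fell to 0.15 without the 2 arrays farthest from the median of miR-34a, so that it rested on those arrays. miR-449a had r of 0.51 with miR-34b-5p, 0.45 with miR-34a and 0.26 with miR-34c. The miRNAs closest to miR-34a were let-7i (r = 0.82), miR-342-3p (0.79) and the epithelial miR-429 (0.78). Those closest to miR-34b-5p after miR-34c were miR-195 (0.79) and miR-20a (0.75), and those closest to miR-34c after miR-34b-5p were miR-30a* (0.69) and miR-195 (0.64). For miR-449a they were miR-20a (0.74), miR-106b (0.67) and miR-98 (0.53); with the brighter probes the value for miR-106b was -0.34.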

How the data were processed

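Cy3-labelled RNA of 24 animals was read on Agilent mouse miRNA arrays with 1 colour (design on mm9). The deposited scanner files hold background-subtracted spot intensity values made by the authors with Feature Extraction 10.7.3.1, per the file headers, with no scaling between arrays; 20 spots per miRNA, 0 saturated. The deposited table of processed intensity values covered 359 mouse miRNAs and was used as an alternative: 99.96% of its values lay within 1% of a fixed multiple of the spot median over the 75th percentile of all spots. That table is linear and was not centred by any step that could be seen. Each column belonged to 1 array.

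Here each intensity was divided by the brightness of its array, values under 0.01 were set to 0.01, the median over 20 spots was taken and log2 computed. 1 mean per group was fitted to all 24 arrays with limma 3.58.1 in R 4.3.3 (20 residual and 1.8 prior degrees of freedom), with Benjamini-Hochberg adjustment over 120 miRNAs detected on at least 6 arrays. Without statements of separate RNA preparations beyond 1 animal per array, p-values measure the spread between these arrays. The script was tested on simulated data. Exact permutation tests used Python 3.11.15 and SciPy 1.17.1. The members, the lists and the comparisons were chosen with earlier results of these data known. The genes named are the members, their hairpin and seed relatives, the 3 closest miRNAs by Pearson's r, and the p53-linked and marker lists, of which the called or the 2 with the smallest p were named; other list miRNAs were named after their values were seen.

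Pairing came from the file headers: arrays with the same replicate number lay on 1 slide. Deviations of same-numbered arrays had a median correlation of 0.07 between M c-Raf and M WT (2 of 6 pairs over 0.1) and 0.40 between F c-Raf and F WT (4 of 6). The fit with slide as a block is given where it changed a call. Alternatives were other scalings, floors, filters and spot summaries, normexp with an offset of 50 (on median spot signals, as no mean signal column was used), the deposited table, the methods' Welch test, slide and scan blocks, array weights and leaving out each array. Added after the data were seen were the brighter probe alone, leaving out 3 arrays under 60 units, the sex difference averaged over both genotypes, and slide blocks joined to other choices.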

Additional observations from a re-analysis of the deposited data

Results flagged for a closer look

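2 arrays stood apart from the other 5 of their group, by a gap over the range larger than Dixon's 95% limit for 6 samples. Both carry miR-34a on slide 4. M WT replicate 4 had -2.77 on the log2 scale, while the other 5 M WT arrays ran from -1.69 to -1.20; it was also 1 of the 3 arrays under 60 brightness units, at 52.8. F c-Raf replicate 4 had -1.85, while the others ran from -1.31 to -0.99, at a brightness of 359 units. By chance about 1 in 20 groups shows this, and 16 groups (4 members in 4 groups) were examined. Without M WT replicate 4 the difference of miR-34a between genotypes over both sexes, with slide as a block, was 0.24 (adjusted p = 0.0248, limma), and that in males alone, without a block, was 0.0136.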

How the results depend on the processing

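Over 28 results (4 members in 7 comparisons) and 1220 alternative values, 1077 kept direction and side of the threshold, 138 had the opposite sign, 4 were newly called and 1 passed only by an unadjusted permutation p; leaving out 1 array without a block gave 0 calls by limma. The block brought miR-34a past the threshold over both sexes and changed no other member's call: 0.30 with the slide or the scan as replicate block and 0.31 with the brighter probe, 1 member called each time. With the block it was also called with a floor of 0.1 (0.27), the mean over spots (0.30), a minimum of 12 arrays (0.30) and without the 3 dim arrays (0.24), thus in 4 of 13 joined settings; with all spots, no scaling, median centring, total signal, quantiles, normexp, a floor of 0.001, an array-set floor or no filter it was not (adjusted p 0.0733 to 0.998). Leaving out arrays or slides gave 0.22 to 0.34 with the block, and leaving out arrays 0.19 to 0.35 without. miR-34c, M minus F over both genotypes, was called with a floor of 0.1 (-0.36, 1 member, adjusted p = 0.0487), and its difference in c-Raf, -0.59, had an unadjusted exact permutation p of 0.0368.

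Signs turned as follows (log2, c-Raf minus WT unless stated). In males they did so for miR-34a with normexp (-0.14); for miR-34b-5p with normexp (-0.76), a floor set by each array's dimmest spot above background (-0.52), array weights (-0.11) and without dim arrays (-0.12); for miR-34c with no scaling (1.12), the percentile over all spots (0.66), the deposited table (0.69), quantiles (0.20) and the methods' linear test (0.85); and for miR-449a with normexp (-0.91), that floor (-1.11) and a floor of 0.001 (-0.0412). In females they did so for miR-34b-5p with normexp (0.62), all spots (0.044), the mean over spots (0.0348) and the brighter probe without or with the replicate block (0.0506); for miR-34c with normexp (0.50), all spots (0.11), the deposited table (0.0497) and without dim arrays (0.12); and for miR-449a with no scaling (-0.0681) and array weights (-0.0227). Over both sexes, miR-34b-5p turned with a floor of 0.1 (-0.00111), the array-set floor (-0.28), normexp (-0.0734), array weights (-0.18) and without dim arrays (-0.0675); miR-34c with all spots (0.38), no scaling (0.44), the deposited table (0.37) and quantiles (0.0615); and miR-449a with that floor (-0.54) and normexp (-0.11). M minus F of miR-34c turned in c-Raf with no scaling (0.12) and in WT with normexp (0.31) and that floor (0.024). The cause was not tested. The median of all miRNAs between genotypes in males moved too, from 0.13 to 1.19 with no scaling. It was 1.01 with all spots or the deposited table, -0.79 with normexp and -0.65 with that floor. In females it moved from 0.03 to 0.62 with normexp. For M minus F it moved in c-Raf from -0.05 to 0.68 with no scaling. For M minus F in WT it moved from -0.12 to 0.46 with normexp and 0.53 with that floor.

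Leaving out 1 array at a time gave ranges that crossed 0 for 14 of the 28 results, among them between genotypes those of miR-34b-5p in males (-0.12 to 0.45), in females (-0.26 to 0.0877) and over both (-0.0978 to 0.19), of miR-34c in males (-0.23 to 0.13), in females (-0.26 to 0.12) and over both (-0.15 to 0.0611), and of miR-449a in females (-0.0247 to 0.23). The methods' Welch test required p under 0.05, a fold change over 3 and a minimum mean signal. Over 542 to 559 miRNAs tested per comparison it passed 10 in males, 3 in females, 1 between WT sexes and 0 between c-Raf sexes. These held 0 members, and 0 miRNAs passed after Benjamini-Hochberg. In this test miR-34a was higher in c-Raf, with log2 ratios of 1.19 in males and 0.33 in females. The paper lists a larger male ratio for its Agilent arrays, past its p limit, yet counts miR-34a as unchanged on both platforms. Its qRT-PCR found a significant increase of miR-34a in both sexes. With a floor of 0.1, miR-449a was at the floor on too many arrays to give a value in some comparisons.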
